A study of Rattus norvegicus with 21 samples.

Results

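Interleukin-6 family signalling was followed through 8 genes: the ligand Il6, the receptor chains Il6r, Il6st, Osmr and Lifr, the transcription factor Stat3, its feedback inhibitor Socs3, and Cebpd, an induced transcription factor. They were chosen by name, with earlier results of these data known. Each was represented by its probe set of highest mean level over all arrays among probe sets that carry a single gene symbol. Of the 8, 7 were measured, among 14217 genes in all. Osmr, the oncostatin M receptor chain, is not among the symbols of the array annotation used here and was skipped.

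Gene expression was profiled on Affymetrix rat arrays in male young adult Fischer 344 rats that carried BDEneu tumours, a model of intrahepatic cholangiocarcinoma, the bile duct cancer that arises within the liver. BDEneu cells are rat bile duct epithelial cells transformed by an activated neu (Erbb2) oncogene. Tumours were taken on day 10 (rats 1 to 3), day 15 (rats 4 to 6) and day 25 (rats 7 to 9) after inoculation, and a peritoneal metastasis was taken from each day 25 rat. The normal right liver lobe of the same 9 rats completed 7 groups of 3 arrays, 1 array per rat and tissue. Every liver lobe therefore came from a tumour-bearing rat, and no liver of a tumour-free rat was analysed here. The cells are 1 transformed line in 1 inbred strain. The day 25 livers have day 55 in their descriptions and day 25 in their titles and source names, and day 25 was used.

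Interleukin-6 binds the receptor chain encoded by Il6r and then the signal-transducing chain gp130, encoded by Il6st, which the other cytokines of the family share. gp130 activates JAK kinases, these phosphorylate STAT3, and STAT3 induces Socs3, whose protein binds gp130 and limits further signalling. In hepatocytes this route drives the acute phase response, the release of plasma proteins during inflammation, in which C/EBP factors also take part. In the bile duct, interleukin-6 is known as a growth factor of cholangiocytes.

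Values are log2 levels as normalized by the authors with RMA, so a difference of 1 is a doubling. Array medians lay between 5.98 and 6.06, and the SD among the 3 arrays of a group, as the median over genes, was 0.11 to 0.177. The labels' tissues were compared with marker lists. The mean level of 12 hepatocyte markers was 7.86 to 11.33 in tumours, 6.35 to 7.52 in metastases and 12.04 to 12.76 in livers. The mean of the 6 of 8 listed biliary markers that were measured was 11.17 to 11.72 in tumours, 11.71 to 11.90 in metastases and 5.74 to 7.37 in livers. Each tissue therefore held its labelled markers, and tumours also held hepatocyte transcripts. The mean of 9 pancreatic acinar markers, which belong to none of the labelled tissues, was 5.23 to 5.80 in 17 arrays and higher in the other 4: the tumours of rats 2 (6.76), 5 (8.94) and 9 (8.84) and the metastasis of rat 8 (11.14). RMA values carry no detection calls, so no marker could be placed at 0.

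The Il6 promoter is shown because Il6 had the largest change of the members between tumour and liver, and the promoter of Lcn2 because Lcn2, a STAT3 target gene, had the largest change of the target genes in the liver over time. Lcn2 was chosen after its values were seen. The windows run from 250 bases before to 50 bases after the gene start in RefSeq (build GRCr8), at chr4:5894526-5894825 (minus strand) for Il6 and chr3:36081731-36082030 (minus strand) for Lcn2. Capitals mark motif matches.
Il6: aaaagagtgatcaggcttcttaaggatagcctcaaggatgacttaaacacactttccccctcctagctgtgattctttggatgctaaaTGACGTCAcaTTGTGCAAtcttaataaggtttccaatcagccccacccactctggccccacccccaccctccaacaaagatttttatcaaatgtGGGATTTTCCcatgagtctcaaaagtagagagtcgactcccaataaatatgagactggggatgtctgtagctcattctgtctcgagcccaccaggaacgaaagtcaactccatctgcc
Lcn2: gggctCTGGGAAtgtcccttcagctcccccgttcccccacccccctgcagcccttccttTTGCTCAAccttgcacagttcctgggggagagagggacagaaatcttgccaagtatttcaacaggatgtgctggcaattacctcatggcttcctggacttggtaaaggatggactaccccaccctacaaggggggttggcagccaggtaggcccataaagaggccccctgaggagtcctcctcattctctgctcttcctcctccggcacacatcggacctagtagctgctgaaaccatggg

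Of the 7 measured members, 6 had a window in the promoter table, and Cebpd did not. On both strands, the STAT motif TTCNNNGAA was in 0 of the 6 windows and in 8.87% of all 33469 windows of that length. The acute phase motif CTGGGAA was in 0 of the 6 windows and in 11.3% of all windows. In Lcn2 it lay 245 to 239 bases before the start. The C/EBP motif TTGCNNAA was in 10.6% of all windows and in 1 of the 6, that of Il6, where it read TTGTGCAA at 152 to 145 bases before the start. In Lcn2 it read TTGCTCAA at 191 to 184 bases before the start. The cyclic AMP response motif TGACGTCA and the NF-kappaB motif GGGATTTTCC were added after the Il6 window had been read. The first lay 162 to 155 bases before the Il6 start and is in 1.83% of all windows. The second lay 68 to 59 bases before it and is in 0.0777% of all windows. Its letters were copied from the Il6 window, so its match there was certain. It is longer than the other motifs, so its share does not compare with theirs. These are matches of letters and were not tested as sites.

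Compared with liver, tumours had more Il6, Socs3 and Cebpd transcript and less Il6r, Il6st, Lifr and Stat3 transcript when the 3 days were averaged. All 7 measured members were called at an adjusted p under 0.05 (limma, Benjamini-Hochberg over 14217 genes), 3 higher and 4 lower. Of all genes, 74.6% were called, 36.8% higher and 37.8% lower, so the count itself does not set the members apart. The size and the timing differed between members and are given below by role. Because whole tissue was profiled, fewer cells of a type and less RNA per cell cannot be told apart.

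Il6, the ligand, had levels of 7.13, 6.75 and 6.57 in day 10 tumours, 5.73, 6.05 and 9.00 in day 15 tumours and 5.86, 8.39 and 5.96 in day 25 tumours. In livers it was 4.08, 4.19 and 4.19 on day 10, 4.37, 4.21 and 4.11 on day 15 and 4.44, 4.40 and 4.50 on day 25. Every tumour array lay above every liver array. Arrays did not overlap in this way for 32.2% of all genes. The day 15 tumour of rat 6 and the day 25 tumour of rat 8 stood far above the other tumours of their day, and no liver array passed 4.50. Il6 averaged 6.83 ± 1.16 in tumours and 4.28 ± 0.15 in livers (SD, n = 9 each), a log2 difference of 2.55 (SE 0.41, adjusted p = 3.51e-05), or 5.86-fold. It was higher in the tumour in 9 of 9 rats.

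By day, Il6 was higher in tumour than in liver by 2.67 (SE 0.72, adjusted p = 0.00469) on day 10, by 2.70 (SE 0.72, adjusted p = 0.00497) on day 15 and by 2.29 (SE 0.72, adjusted p = 0.0141) on day 25. Without the tumour of rat 6 the day 15 difference was 1.66 (adjusted p = 0.0302) and stayed called. The day 25 call rested on rat 8: without its tumour the difference was 1.46 (adjusted p = 0.092), and with array weights it was 3.64. The difference did not change detectably with time, at -0.38 for day 25 minus day 10 (SE 1.01, adjusted p = 0.880).

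**Figure D1:**
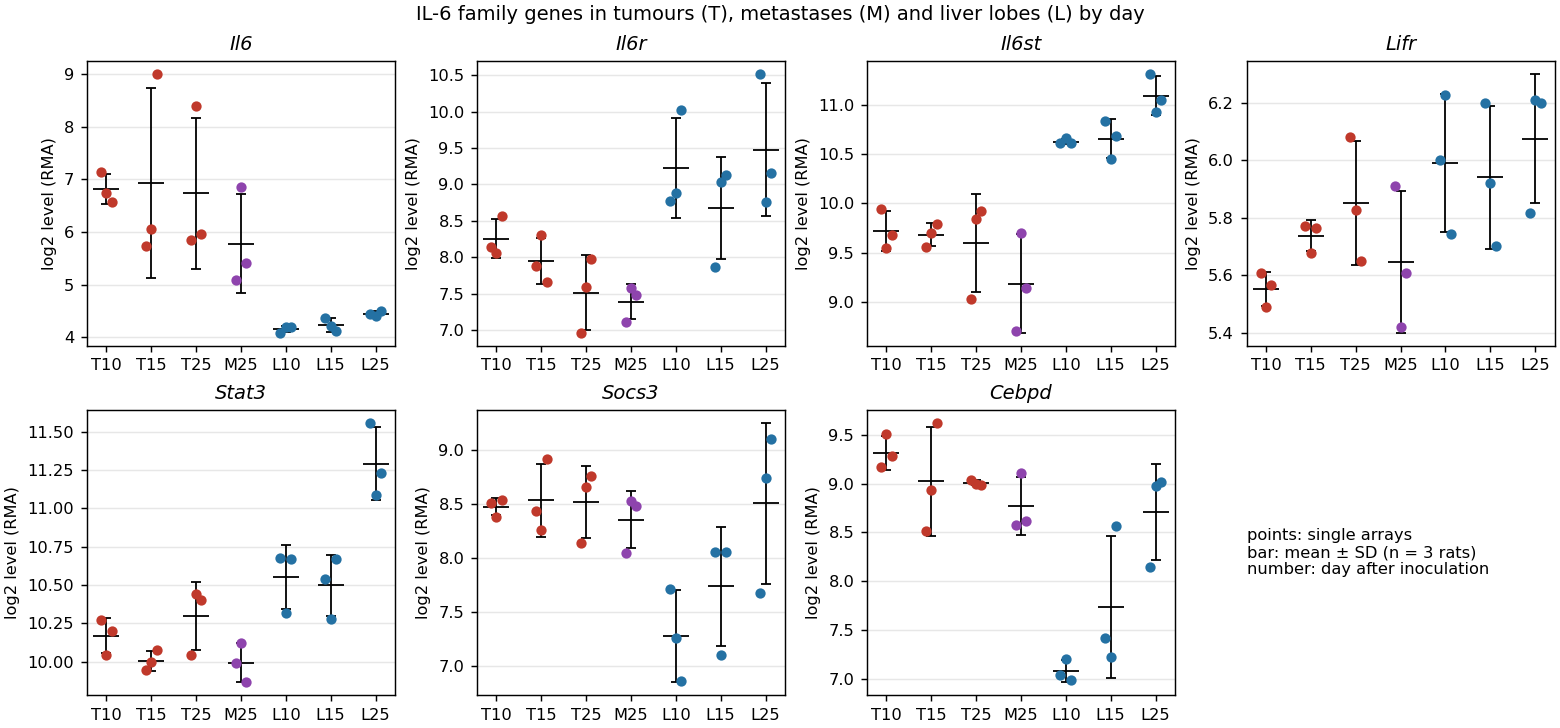
Log2 RMA level (vertical axis) of the 7 measured members in day 10, 15 and 25 tumours (T10, T15, T25), day 25 metastases (M25) and day 10, 15 and 25 livers (L10, L15, L25). Points are single arrays and bars the mean ± SD of 3 rats. Il6 lay at 5.73 or more in all tumours and at 4.50 or less in all livers, and Cebpd in livers averaged 8.71 on day 25 and 7.08 on day 10.

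The receptor chains went the other way. Il6st, which encodes gp130, had levels of 9.94, 9.54 and 9.68 in day 10 tumours, 9.56, 9.70 and 9.79 in day 15 tumours and 9.02, 9.85 and 9.93 in day 25 tumours. In livers it was 10.62, 10.66 and 10.61 on day 10, 10.84, 10.46 and 10.69 on day 15 and 11.32, 10.93 and 11.05 on day 25. Every tumour array lay below every liver array, and arrays did not overlap for 32.2% of all genes. The tumour was lower in 9 of 9 rats.

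Il6st fell by 1.13 on the log2 scale in tumours over all days (SE 0.13, adjusted p = 1.11e-06). The daily differences were -0.91 on day 10 (adjusted p = 0.00335), -0.98 on day 15 (adjusted p = 0.00224) and -1.50 on day 25 (adjusted p = 6.48e-05). With the mean over its 4 probe sets the day 10 call was lost (adjusted p = 0.0605). The other 3 probe sets gave -1.01, -0.85 and -0.94 over all days.

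Il6r, the ligand-binding chain, ranged from 6.96 to 8.57 in tumours (median 7.98) and from 7.87 to 10.52 in livers (median 9.04). The ranges met because the day 15 liver of rat 4, at 7.87, lay within the tumour range. Averages were 7.91 ± 0.46 in tumours and 9.13 ± 0.76 in livers (SD, n = 9 each), a difference of -1.22 (SE 0.25, adjusted p = 0.000365). The tumour was lower in 8 of 9 rats. Day 25 was called on its own, at -1.97 (adjusted p = 0.00137), against -0.97 on day 10 (adjusted p = 0.0667) and -0.73 on day 15 (adjusted p = 0.174). The change of the difference between days 10 and 25, -0.997, did not pass the test (adjusted p = 0.423). The day 15 difference was -1.13 (adjusted p = 0.049) without the liver of rat 4, and day 10 was called without the liver of rat 4 (adjusted p = 0.0493) or of rat 7 (adjusted p = 0.0311), which enter the shared estimate of the spread. Day 10 was also called with quantile normalization (-1.16, adjusted p = 0.0247), with only the groups compared (adjusted p = 0.0234) and with array weights (adjusted p = 0.0158).

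Lifr, the receptor chain that pairs with gp130 for leukaemia inhibitory factor, ranged from 5.49 to 6.08 in tumours (median 5.68) and from 5.70 to 6.23 in livers (median 6.00). The ranges overlapped for most of their length. The difference of -0.29 over all days was called (SE 0.093, adjusted p = 0.0105), but it was lost without the 4 arrays with acinar transcripts (adjusted p = 0.0608). The day 10 difference of -0.44 (adjusted p = 0.0281) was lost without the tumour of rat 2 or 3 or the liver of rat 1 or 2 (adjusted p between 0.0546 and 0.133), without the acinar arrays (adjusted p = 0.0793) and with rat as a fixed block (adjusted p = 0.0521). Those of days 15 and 25, -0.20 and -0.22, were not called, though day 25 was with array weights (-0.36, adjusted p = 0.0137). A second Lifr probe set gave larger differences, -0.50 over all days (adjusted p = 0.00177), -0.45 on day 10 (adjusted p = 0.0842), -0.42 on day 15 (adjusted p = 0.117) and -0.63 on day 25 (adjusted p = 0.0267). All Lifr levels of the first probe set lay near or below the array medians.

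Hepatocyte marker means differed between tumours. The day 25 tumour of rat 7 had the lowest hepatocyte marker mean of all tumours, 7.86. Its differences from the liver of the same rat were -3.55 for Il6r, -2.30 for Il6st and -1.51 for Stat3. The liver of rat 7 also had the highest level of all livers for these 3 genes, 10.52, 11.32 and 11.56, while Stat3 in its tumour, at 10.04, lay above the tumours of rats 4 and 5, at 9.94 and 10.00. Among the livers, that of rat 7 also had the highest marker means for hepatocytes (12.76), biliary epithelium (7.37), mesothelium (6.16) and macrophages (10.13). The part of hepatocyte transcripts and of these other cell types in the differences was not tested.

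Stat3, which encodes the signal transducer, had levels of 10.27, 10.04 and 10.20 in day 10 tumours, 9.94, 10.00 and 10.08 in day 15 tumours and 10.04, 10.44 and 10.40 in day 25 tumours. In livers it was 10.68, 10.31 and 10.67 on day 10, 10.54, 10.28 and 10.67 on day 15 and 11.56, 11.09 and 11.23 on day 25. Tumours were lower in 9 of 9 rats, and the day 25 livers stood above all other arrays.

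Over all days Stat3 fell by 0.62 in tumours (SE 0.083, adjusted p = 4.16e-06). The daily differences were -0.38 on day 10 (adjusted p = 0.0313), -0.49 on day 15 (adjusted p = 0.00923) and -0.99 on day 25 (adjusted p = 3.36e-05). The day 10 call was lost without the tumour of rat 2 or 3 or the liver of rat 1 or 3 (adjusted p between 0.0549 and 0.115), with the mean over both probe sets (adjusted p = 0.0675) and without the arrays with acinar transcripts (adjusted p = 0.141).

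Socs3, the feedback inhibitor, had levels of 8.51, 8.38 and 8.54 in day 10 tumours, 8.44, 8.26 and 8.91 in day 15 tumours and 8.14, 8.66 and 8.76 in day 25 tumours. In livers it was 7.71, 7.26 and 6.86 on day 10, 8.06, 7.11 and 8.06 on day 15 and 7.68, 8.75 and 9.10 on day 25. Tumour means lay between 8.48 and 8.54 on the 3 days, and the day 25 livers spanned the whole tumour range. The difference was 0.67 over all days (SE 0.19, adjusted p = 0.00507).

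On day 10 Socs3 was higher in tumours by 1.20 (SE 0.33, adjusted p = 0.00588). On day 15 the difference was 0.80 (adjusted p = 0.0558), and it was called with rat as a random block (adjusted p = 0.0307) or as a fixed block (adjusted p = 0.00847). It was also called without the day 15 tumour of rat 5, the day 15 liver of rat 4 or 6, or the day 25 liver of rat 7 or 9 (adjusted p between 0.0212 and 0.0499). It was called as well with dim genes filtered (adjusted p = 0.0464) and with array weights (0.55, adjusted p = 0.0283). On day 25 it was 0.01 (adjusted p = 0.981). The difference between days 10 and 25 itself, -1.19, did not pass the test (adjusted p = 0.209). With array weights it was -1.28 and was called (adjusted p = 0.00821).

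Cebpd, the transcription factor C/EBP delta, had levels of 9.16, 9.51 and 9.28 in day 10 tumours, 8.51, 8.94 and 9.62 in day 15 tumours and 9.04, 9.00 and 8.99 in day 25 tumours. In livers it was 7.04, 7.20 and 6.99 on day 10, 7.42, 7.22 and 8.56 on day 15 and 8.14, 8.97 and 9.02 on day 25. On day 10 the tissues were far apart, and by day 25 the livers of rats 8 and 9 lay close to their tumours.

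Over all days Cebpd was higher in tumours by 1.27 (SE 0.18, adjusted p = 9.75e-06). The difference was 2.24 on day 10 (SE 0.32, adjusted p = 2.13e-05), 1.29 on day 15 (SE 0.32, adjusted p = 0.00296) and 0.30 on day 25 (SE 0.32, adjusted p = 0.459). Within rats, tumour minus liver was 2.12, 2.30 and 2.29 on day 10, 1.09, 1.71 and 1.05 on day 15 and 0.89, 0.02 and -0.03 on day 25. In the main fit Cebpd was the 1 member whose tumour-liver difference changed between days 10 and 25, by -1.94 (SE 0.45, adjusted p = 0.0441). In that comparison 1.46% of all genes were called and 1.09% called lower. The Cebpd call lies close to the threshold. It was lost without any of the day 10 arrays or day 25 tumours, without the livers of rats 4, 8 or 9, the tumour of rat 5 or the metastasis of rat 9 (adjusted p between 0.0525 and 0.128), and without the arrays with acinar transcripts (-1.84, adjusted p = 0.116).

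A second Cebpd probe set gave 1.11 over all days. The third, with levels far below the array medians, gave -0.08. With the mean over the probe sets Cebpd stayed called, at 0.77 over all days, 1.36 on day 10 and, in day 25 against day 10 livers, 1.08, and with array weights the day 15 difference was 0.83.

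Counted by day, 6 of the 7 members were called in tumour against liver on day 10, 4 on day 15 and 4 on day 25. On day 10 Il6, Socs3 and Cebpd were higher and Il6st, Lifr and Stat3 lower, where 58.4% of all genes were called, 30.4% higher and 28.1% lower. On day 15 Il6 and Cebpd were higher and Il6st and Stat3 lower, where 51.8% of all genes were called, 28.2% higher and 23.6% lower. On day 25 Il6 was higher and Il6r, Il6st and Stat3 lower, where 50.1% of all genes were called, 27.7% higher and 22.4% lower.

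**Figure D2:**
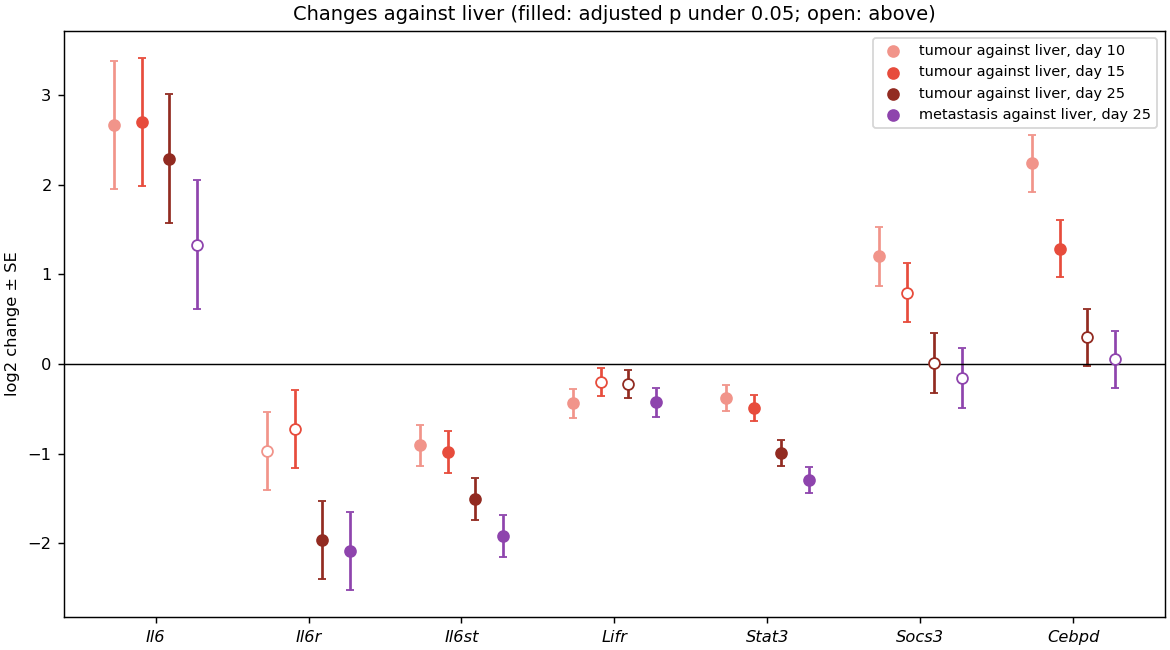
Log2 change ± SE (vertical axis) of each member in tumour against liver on days 10, 15 and 25 and in metastasis against liver on day 25. Filled points have an adjusted p under 0.05. In tumours Cebpd was 0.30 above liver on day 25 and 2.24 above it on day 10, and Il6 was 2.29 to 2.70 above it.

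The route also differed between livers of different days. In day 25 against day 10 livers, 3 of the 7 members were called, all higher: Stat3, Socs3 and Cebpd. Of all genes, 9.1% were called and 5.33% were called higher. Cebpd was higher by 1.63 (SE 0.32, adjusted p = 0.00575), or 3.1-fold. Stat3 was higher by 0.74 (SE 0.14, adjusted p = 0.00576), and its second probe set gave 0.79. When only the groups compared were fitted, Stat3 lost its call (adjusted p = 0.0603).

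Socs3 was higher by 1.23 in day 25 livers (SE 0.33, adjusted p = 0.0302). Its call was lost without the day 10 liver of rat 2 or 3 or the day 25 liver of rat 8 or 9 (adjusted p between 0.0822 and 0.129), with only the groups compared (adjusted p = 0.135) and without the arrays with acinar transcripts (adjusted p = 0.0569). The liver of rat 7 on day 25, at 7.68, lay just below that of rat 1 on day 10, at 7.71. The arrays of Stat3, Cebpd, Il6st and Il6 did not overlap between these days, as was so for 30.3% of all genes. Il6st differed by 0.47 (adjusted p = 0.225) and Il6 by 0.29 (adjusted p = 0.85). Il6r differed by 0.25 and Lifr by 0.08, neither of them called.

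Stat3 was the 1 member called in day 25 against day 15 livers, higher by 0.79 (SE 0.14, adjusted p = 0.00841), where 2.2% of all genes were called and 0.823% called higher. It was not called when only those groups were fitted (adjusted p = 0.207). Cebpd differed by 0.97 (adjusted p = 0.133), and by 1.39 (adjusted p = 0.0215) without the day 15 liver of rat 6. Between days 15 and 10, limma called 0 members and 0.0281% of all genes in liver, while 1438 genes had an unadjusted p under 0.05. The largest member differences there were 0.66 for Cebpd (adjusted p = 0.504), -0.55 for Il6r and 0.46 for Socs3. The day 15 liver of rat 6 stood apart with the highest Cebpd level of its group.

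In day 25 against day 10 tumours limma called 0 members and 0.0563% of all genes, with 2443 genes at an unadjusted p under 0.05. The member differences ran from -0.74 for Il6r (adjusted p = 0.389) to 0.30 for Lifr (adjusted p = 0.346).

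**Figure D3:**
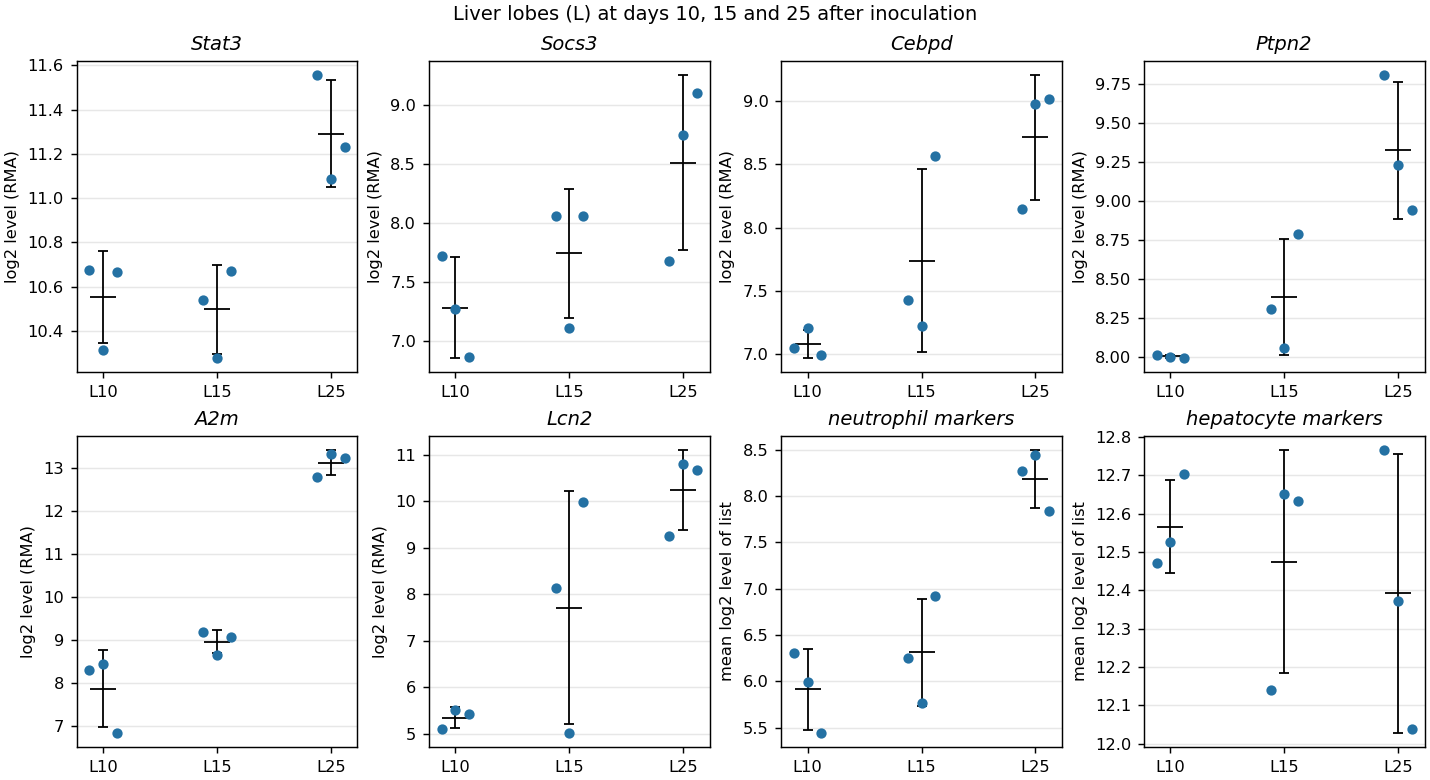
Log2 RMA level (vertical axis) in livers of days 10, 15 and 25 (L10, L15, L25) for 6 genes, and the mean log2 level of the neutrophil and hepatocyte marker lists. Points are single livers and bars the mean ± SD of 3 rats. A2m was 12.80 or more on day 25 and 8.46 or less on day 10, while the hepatocyte marker means overlapped between days.

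Other genes of the route were followed in lists that had been chosen with earlier results of these data known. The lists share genes, such as Junb and Myc, and also hold the members, so their counts are not independent. In day 25 against day 10 livers, 2 of 17 measured acute phase genes were called, both higher, where 5.33% of all genes were called higher. The list median was 0.20 against -0.01 over all genes. A2m, which encodes alpha-2-macroglobulin, a protease inhibitor and the classical interleukin-6 dependent acute phase protein of the rat, had levels of 12.80, 13.34 and 13.24 on day 25, against 8.31, 8.46 and 6.85 on day 10. All day 25 livers lay far above the day 10 livers, and A2m rose by 5.26 (adjusted p = 0.00022). Lbp, the lipopolysaccharide-binding protein, rose by 2.01 (adjusted p = 0.0258). Fgb, a fibrinogen chain, differed by 0.31 and was not called.

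Of 15 STAT3 target genes in these livers, 4 rose and 0 fell, with a list median of 0.35, where 5.33% of all genes were called higher. The count was 3 without the arrays with acinar transcripts and 3 with quantile normalization. Lcn2, which encodes the iron-siderophore carrier lipocalin 2, had levels of 9.26, 10.80 and 10.68 on day 25, against 5.10, 5.52 and 5.44 on day 10. The groups were widely apart, with a rise of 4.89 (adjusted p = 0.00266). In day 15 livers Lcn2 was 8.13, 5.02 and 9.99, so that 1 of those livers lay near the day 10 level and another within the day 25 range. Timp1, a metalloproteinase inhibitor, rose by 1.73 (adjusted p = 0.00773), Junb, an AP-1 factor, by 0.86 (adjusted p = 0.0446), and Tnfrsf1a, a tumour necrosis factor receptor, by 0.63 (adjusted p = 0.00867).

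Among 10 feedback inhibitors, 4 rose in day 25 livers and 0 fell, with a list median of 0.12. In this comparison 5.33% of all genes were called higher, and the counts below stand against that share. Without the arrays with acinar transcripts, which share the estimate of the spread, 2 rose (Ptpn2 and Ptpn11). Beside Socs3 the 4 were the phosphatase genes Ptpn2 (1.32, adjusted p = 0.000667), Ptpn1 (0.49, adjusted p = 0.0497) and Ptpn11 (0.48). Ptpn2, whose product dephosphorylates STAT proteins, had levels of 9.80, 9.23 and 8.94 on day 25, against 8.01, 8.00 and 8.00 on day 10. The groups did not overlap, as was so for 30.3% of all genes, and the day 10 livers were nearly equal. Socs1 and Socs2 differed by -0.09 and -0.59, neither called. Among 11 C/EBP and other induced factors 3 rose and 0 fell: Cebpd, Junb and Klf6 (1.52). Without the acinar arrays 1 rose (Cebpd) and 1 fell (Cebpa). Cebpa and Cebpb, the other C/EBP genes of the list, differed by -0.86 and -0.22 and were not called. Of the other lists, 0 of 8 ligands and 0 of 6 receptor chains were called, 1 of 7 JAK and STAT genes (Stat3) rose, and 2 of 10 genes that induce Il6 rose: Il1r1, an interleukin-1 receptor (1.44), and Nfkb1, an NF-kappaB subunit (0.92).

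Neutrophil marker means were also higher in day 25 than in day 10 livers. The mean level of the 7 of 8 listed neutrophil markers that were measured was 7.83 to 8.44 in day 25 livers, against 5.44 to 6.31 in day 10 livers, with 5.76 to 6.92 in day 15 livers. The mean of 10 macrophage markers was 9.57 to 10.13 on day 25 and 9.16 to 9.44 on day 10. The mean of 10 fibroblast markers was 7.80 to 8.77 on day 25 and 7.06 to 7.99 on day 10. Their part in the liver changes was not tested.

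Between tumour and liver over all days, 36.8% of all genes were called higher and 37.8% lower, and the list counts stand against those shares. Of the family's ligands, 5 of 8 measured were higher and 1 was lower, with a list median of 0.58 against -0.03 over all genes. Beside Il6 these were Clcf1, cardiotrophin-like cytokine factor 1 (1.93, adjusted p = 1.31e-06), Ebi3, a subunit of interleukin-27 (1.18), Osm, oncostatin M (0.62), and Cntf, ciliary neurotrophic factor (0.55). Ctf1, cardiotrophin 1, was lower (-0.73). Il11 and Lif differed by 0.08 and -0.16 and were not called.

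All 6 measured receptor chains were lower in tumours (5 without the acinar arrays), with a list median of -0.60. Il11ra1, the interleukin-11 receptor chain, fell by 0.90, and Cntfr and Il27ra, receptor chains for ciliary neurotrophic factor and interleukin-27, by 0.31 and 0.29. Among 7 JAK and STAT genes, 1 was higher and 4 were lower. Jak2, a kinase that associates with gp130, was the 1 that was higher, by 1.54 (adjusted p = 7.48e-08), while Jak1 (-0.39), Tyk2 (-0.44), Stat3 and Stat5b (-0.72) were lower. Stat5a and Jak3 were not called.

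Downstream, 7 of 10 feedback inhibitors were higher and 1 was lower in tumours, with a list median of 0.44, and 6 and 0 without the acinar arrays. Ptpn6 (0.87) and Ptpn2 (0.64), both phosphatases, and Pias3 (0.73), an inhibitor of STAT3, were higher with Socs3, as were Ptpn1 (0.47), Ptpn11 (0.40) and Pias1 (0.14), the 1 gene of these whose sign turned under quantile normalization. Socs2 was lower (-0.68), and Socs1 and Cish were not called. Of 11 C/EBP and other induced factors, 6 were higher and 2 lower, with a list median of 0.59. Myc (2.01) and Klf6 (1.54) were higher, and Cebpa (-1.60), a factor of differentiated hepatocytes, and Nfil3 (-0.90) were lower. Cebpb, at 0.11, was not called.

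STAT3 target genes were mostly higher in tumours, 11 of 15 with 1 lower and a list median of 0.80. Timp1 (4.09), Ccnd1, which encodes cyclin D1 (2.33), Myc (2.01) and Hif1a, the hypoxia factor (1.77), were the furthest from liver, and Lcn2, at 0.21, was not called. By day, Lcn2 averaged 7.80 in tumours and 5.35 in livers on day 10, and 8.65 and 10.24 on day 25. Many of the target genes are induced by other routes as well. Of 10 genes that induce Il6, 8 were higher and 1 was lower, with a list median of 0.88: Ptgs2, the prostaglandin synthase COX-2 (3.24), Il1a (2.67), Il1b (2.64) and Tlr4 (2.04) were higher, Il1r1 was lower (-0.99), and Tnf, at 0.02, was not called.

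Acute phase genes were mostly lower, 11 of 17 with 1 higher and a list median of -1.04 (13 lower without the acinar arrays). Apcs, serum amyloid P (-2.58), Crp, C-reactive protein (-2.05), and Itih3 (-1.69) were lower. A2m was the 1 gene of the list that was higher in tumours over all days, by 1.79 (adjusted p = 0.000342). Its mean was 12.16 in tumours and 7.87 in livers on day 10, and 11.29 and 8.97 on day 15. On day 25 the tumour mean was below the liver mean, at 11.89 and 13.13, and the ranges overlapped. Acute phase proteins are made by hepatocytes, whose marker mean was lower in every tumour than in any liver. Means of fibroblast markers were 10.74 to 11.97 in tumours and 7.06 to 8.77 in livers. Means of neutrophil markers were 8.14 to 9.48 in tumours and 5.44 to 8.44 in livers. Their part in the changes of these lists was not tested.

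**Figure D4:**
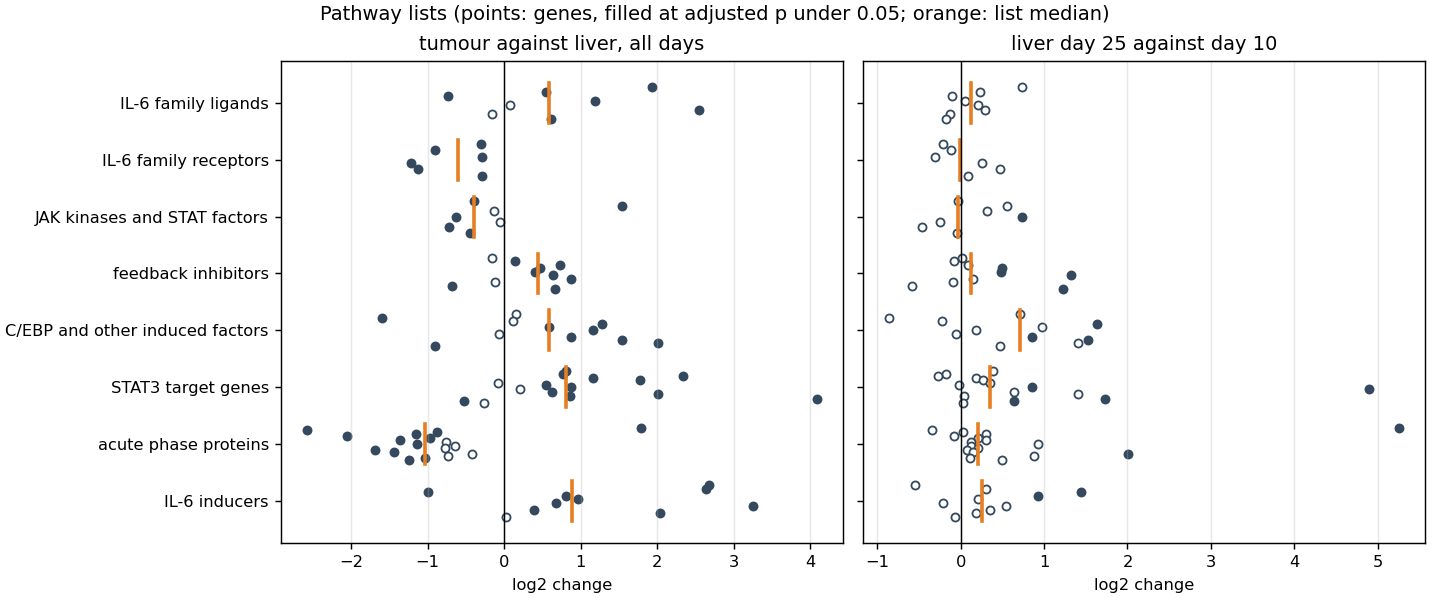
Log2 change (horizontal axis) of each measured gene in 8 pathway lists (vertical axis), in tumour against liver over all days (left) and in day 25 against day 10 livers (right). Points are genes, filled at an adjusted p under 0.05, and the orange bar is the list median. Receptor chains lay below 0 in tumours, and A2m (5.26) and Lcn2 (4.89) were furthest to the right in the livers.

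In peritoneal metastases the route was compared with the liver and with the tumour of the same day. Against day 25 liver, 4 of 7 members were called, all lower, where 57.0% of all genes were called, 33.3% as higher and 23.6% as lower. Il6r was 7.12, 7.57 and 7.48 in metastases, against 10.52, 8.76 and 9.16 in day 25 livers, and fell by 2.09 (adjusted p = 0.000658). Il6st was 8.70, 9.70 and 9.14 in metastases, against 11.32, 10.93 and 11.05 in livers, and fell by 1.92 (adjusted p = 3.6e-06). Both receptor genes lay lower in every metastasis than in any of these livers.

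Stat3, at 9.99, 10.12 and 9.87 in metastases, fell by 1.30 (adjusted p = 1.45e-06). Lifr, at 5.91, 5.42 and 5.61, fell by 0.43 (adjusted p = 0.0313), a call that was lost with rat as a fixed block (adjusted p = 0.0575), with quantile normalization (0.0502), with only the groups compared (0.102), without the metastasis or the liver of rat 8 or 9 (between 0.0762 and 0.14) and without the acinar arrays (0.162). The second Lifr probe set fell by 0.85 (adjusted p = 0.00335). Socs3 (8.05, 8.53 and 8.48 in metastases) and Cebpd (8.57, 9.11 and 8.62) lay within or close to the day 25 liver range. They differed by -0.15 (adjusted p = 0.712) and 0.05 (adjusted p = 0.892).

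Il6 was 5.08, 6.85 and 5.40 in metastases, against 4.44, 4.40 and 4.50 in day 25 livers. Each metastasis lay above each liver, as was so in 1 or the other direction for 58.7% of all genes, but the difference of 1.33 (SE 0.72) did not pass the test (adjusted p = 0.122). It was called without the day 15 tumour of rat 6, which enters the shared estimate of the spread (adjusted p = 0.0384).

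Against the day 25 tumours of the same rats, limma called 0 members and 0.338% of all genes, with 863 genes at an unadjusted p under 0.05. Il6 differed by -0.96 (adjusted p = 0.849), and within rats metastasis minus tumour was -0.77, -1.54 and -0.56. Il6st differed by -0.42 and Stat3 by -0.30. With array weights, set for each array from its deviations over all genes, 3 members were called lower in metastases. They were Il6 (-2.58), Il6st (-0.66) and Stat3 (-0.54). The weighted Il6 difference was larger than that within any of the rats. The share of all genes called with these weights is not given here, so the count has no background beside it.

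In metastases against day 25 livers, all 17 measured acute phase genes were lower, with a list median of -7.09 against 0.03 over all genes, and Fgb was furthest at -8.70. Of 6 receptor chains 5 were lower, among them Il11ra1 (-1.46), and 3 without the acinar arrays. Of all genes, 33.3% were called higher and 23.6% lower. Of 15 STAT3 target genes 9 were higher (7 without the acinar arrays), led by Ccnd1 (2.94) and Timp1 (2.54), and 2 were lower, Lcn2 (-2.67) and Tnfrsf1a (-1.21). Of 8 ligands 3 were higher, Clcf1 (1.90), Ebi3 (1.33) and Cntf (0.90), and Ctf1 was lower (-0.65). Jak2 was higher by 1.33, and of the inducers Il1a (3.54), Tlr4 (2.03) and Il1b (1.88) were higher and Il1r1 was lower (-2.19).

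Against day 25 tumours, 12 of 17 acute phase genes were lower in metastases (5 without the acinar arrays), and 0 genes of the other 7 lists were called. Of all genes only 0.338% were called in this comparison, so the 0 does not set those lists apart. The acute phase median was -5.03 against 0.06 over all genes, with A2m at -3.46 (adjusted p = 0.0183). The hepatocyte marker mean was 6.35 to 7.52 in metastases and 7.86 to 10.10 in day 25 tumours, and its part in these changes was not tested.

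Ordered by group mean, Il6 ran from day 15 tumour through day 10 tumour, day 25 tumour, metastasis and day 25 liver to day 15 and day 10 liver. Arrays of neighbouring groups in that order overlapped, except between metastasis and day 25 liver and between day 25 and day 15 liver. For Stat3, day 25 liver stood at the top with no overlap with the next group, day 10 liver, and all lower neighbours overlapped. For Il6st there was no overlap between day 25 and day 15 liver or between day 10 liver and day 10 tumour. For Cebpd the 1 gap was between day 15 and day 10 liver, at the bottom of the order. All neighbours overlapped for Il6r, Lifr and Socs3. Arrays of metastasis and day 25 liver did not overlap for 58.7% of all genes, and those of day 25 and day 10 liver for 30.3%. Shares for the other gaps are not given here, so no gap is read as particular to a member.

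Genes with the most similar pattern were found by Pearson's r over the 7 group means, among genes whose group means span at least 1 on the log2 scale. For Il6 the closest were Ptgs2 (r = 0.995 over 7 group means, 0.976 over 21 arrays), Bhlhe22 (0.986 and 0.863) and Cd200 (0.986 and 0.832). For Stat3 they were Sybu (0.986 and 0.677), Pcsk6 (0.986 and 0.943) and Rab30 (0.985 and 0.936), and for Cebpd they were Cygb (0.991 and 0.882), Nfkb1 (0.985 and 0.807) and Lgmn (0.983 and 0.854). Il6st was closest to Asl (0.997 and 0.916), Nos1ap and Rbpms, and Il6r to Sat2 (0.994 and 0.884), Marveld1 and St3gal1. Socs3 was closest to Pakap (0.991 and 0.556), Aig1 and Timp3, and Lifr to Mtss1 (0.940 and 0.490), Tacr1 and Abca1. Groups share rats and tissues, so these values describe the pattern and were not tested.

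Ptgs2 had levels of 7.87, 7.32 and 6.60 in day 10 tumours, 6.03, 5.92 and 11.43 in day 15 tumours and 6.19, 10.66 and 5.64 in day 25 tumours. Its metastasis levels were 5.02, 7.08 and 5.65, and in livers it stayed between 3.95 and 4.92. The tumours of rats 6 and 8, highest for Il6, were also highest for Ptgs2.

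**Figure D5:**
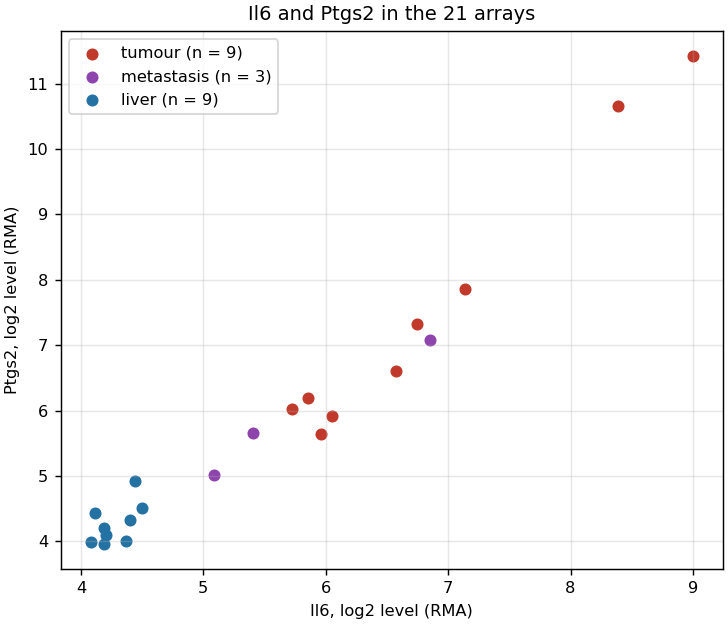
Log2 RMA level of Ptgs2 (vertical axis) against that of Il6 (horizontal axis) in 21 arrays, each point 1 array, coloured by tissue. The tumours of rats 6 and 8 lie at the top right, with Il6 at 9.00 and 8.39, and the 9 livers lie at the bottom left.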

How the data were processed

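The authors deposited log2 levels, 1 per probe set and array, made with RMA, per the submitters' processing notes; its program and version are not given there. RMA forces all arrays to 1 distribution, which partly removes a shift shared by most transcripts. The table holds 31099 probe sets, 57 of them array controls. The platform annotation gives 1 symbol to 20826 of the others, several to 436 and none to 9780. A RefSeq table (assembly GRCr8) held the identifier of 20758 of the 20826 and gave current symbols. Of several probe sets, the one of highest mean stood for a gene (4525 of 14217 genes).

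Tests used limma 3.58.1 in R 4.3.3 (lmFit, eBayes) over 7 group means from all 21 arrays, with Benjamini-Hochberg adjustment over 14217 genes and calls at an adjusted p under 0.05. There were 11 comparisons. The fit was also run on simulated data for day 25 against day 10 tumours, with arrays drawn independently, and its outcome is not given here. That run does not bear on the pairing of tissues within rats. Tissues of 1 rat are paired by the labels' rat numbers; residuals of same-rat pairs correlated at 0.04 to 0.578, 10 of 15 over 0.1. The main fit left rat out, and alternatives held it as a block. Other alternatives changed the normalization, the probe set rule, the filter on dim genes (highest group mean over 7.08, 8573 genes), the variance prior, array weights, the arrays fitted and 1 array at a time. Leaving out the 4 arrays with acinar transcripts was added after the data were seen. Shares of all genes called are from the main fit, and those of the alternatives are not given here.

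The members and gene lists were chosen with earlier results of these data known. Named list genes were members, ligands, receptors, feedback inhibitors, up to 4 called genes of largest change per list and 1 uncalled gene of highest mean; Tnf, Cebpb, Ptgs2, Lcn2 and genes beyond that rule were named after their values were seen. The number of arrays limits the precision, and no scan date was given, so batches were not analysed here. Figures and tables were made in Python 3.11.15 (pandas 2.3.3, numpy 2.4.6, matplotlib 3.10.9).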

Additional observations from a re-analysis of the deposited data

Results flagged for a closer look

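The difference in Cebpd between tumour and liver changed between days 10 and 25 by -1.94 (limma interaction term, adjusted p = 0.0441). It was 0.30 on day 25 and 2.24 on day 10. The 3 within-rat differences were 0.89, 0.02 and -0.03 on day 25 and 2.12 to 2.30 on day 10. The call was lost without the arrays with acinar transcripts (adjusted p = 0.116).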

How the results depend on the processing

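Over 10 other settings and the fit without the arrays with acinar transcripts, 751 values kept their direction and side of the threshold, 17 lost a call, 13 gained one and 16 changed sign; with 1 array left out, 1551 kept both, 31 lost a call, 10 gained one and 25 changed sign. The number of called members in day 25 against day 10 livers was 3, against 1 with only the groups compared, 2 without the acinar arrays and 2 to 3 with 1 array left out. In day 25 against day 15 livers it was 1, against 2 with the mean over probe sets and 0 with only the groups compared, and 1 to 2 with 1 array left out. In metastasis against tumour it was 0, against 3 with array weights. For the difference between days 10 and 25 of tumour minus liver it was 1, against 0 with quantile normalization, with all probe sets as features and without the acinar arrays. It was 2 with array weights (Cebpd and Socs3) and 0 to 1 with 1 array left out. The Cebpd value there lay between -2.22 and -1.79 with 1 array left out.

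With the replicate block (rat), Socs3 on day 15 gained its call and, as a fixed term, Lifr lost its calls on day 10 (adjusted p = 0.0521) and in metastasis against liver; the block changed no other member's call. All sign changes were of uncalled values. Socs3 in tumour against liver on day 25 was -0.11 with quantile normalization, -0.026 with arrays centred on their medians, -0.10 with array weights and -0.11 without the acinar arrays, and -0.40 to 0.31 with 1 array left out. Cebpd in metastasis against liver was -0.14 with quantile normalization, -0.10 with the mean over probe sets, -0.27 with array weights and -0.12 without the acinar arrays (-0.23 to 0.21 with 1 array left out). Il6 in day 25 against day 10 tumours was 0.033 with quantile normalization, 1.20 with array weights and 0.27 without the acinar arrays (-0.91 to 0.36). With array weights, Il6st in day 25 against day 10 tumours was 0.045 (-0.29 to 0.16), Il6r in day 25 against day 10 livers -0.20 (-0.26 to 0.65) and, for Il6, the day 25 minus day 10 difference of tumour minus liver 0.91 (-1.20 to 0.062). Without the acinar arrays, Il6r in metastasis against tumour was 0.021 (-0.40 to 0.11) and Socs3 in day 25 against day 10 tumours -0.13 (-0.081 to 0.23). With 1 array left out, Socs3 in metastasis against liver lay between -0.57 and 0.15 and Lifr in day 25 against day 10 livers between -0.039 and 0.21; in day 15 against day 10 livers Il6st lay between -0.060 and 0.13, Lifr between -0.18 and 0.068 and Stat3 between -0.17 and 0.054. The cause of these shifts was not tested.

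With 3 rats per group, differences in Il6 were measured against a wide spread, up to an SD of 1.80 in day 15 tumours. Levels of Il6 in livers and in some tumours and metastases, and of Lifr in all tissues, are near or below the array medians. No detection calls part signal from background there. The highest group means of Il6 (6.93, day 15 tumours) and Lifr (6.075, day 25 livers) lay under the dim filter of 7.08. That filter removed Il6 and Lifr, so their results were not checked in that setting.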

Other observations

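Among the 12 tumour and metastasis arrays alone, and chosen after the values were seen, the genes whose level followed Il6 most closely were Ptgs2 (r = 0.980), Pde4b, a cyclic AMP phosphodiesterase (r = 0.945), Ets2, a transcription factor (r = 0.923), Chrdl2 (r = 0.904) and Thbd, thrombomodulin (r = 0.888), of 5074 genes ranked. Without the tumours of rats 6 and 8, which had the highest Il6, r over the 10 remaining arrays was 0.948 for Ptgs2, 0.848 for Pde4b, 0.798 for Ets2, 0.781 for Thbd and 0.599 for Chrdl2. The 12 arrays come from 9 rats, and the values are a description without a test.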
